A study of Mus musculus with 6 samples.

Results

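The GABA-A receptor subunit genes described here are Gabra2, Gabra3, Gabra4 and Gabra5 (alpha subunits), Gabrb1 (a beta subunit), and Gabrg1 and Gabrg3 (gamma subunits). They were taken by symbol from the deposited table, which held all 7 among 23337 gene symbols, and all 7 passed the filter on low values with 13175 genes. The list does not hold every subunit gene of the receptor. RNA came from adult C57BL/6 mice, from sorted dopaminergic neurons of the pars compacta of the substantia nigra (SNc). The mice of both groups had the same 3 alleles, Sox6-FSF-Cre with Th-2A-Flpo and the reporter RC-Frepe, and no treatment is named. In this intersectional design a Flp recombinase made with tyrosine hydroxylase (Th) opens the Cre allele at Sox6, and the reporter shows mCherry after Flp alone and GFP after Flp and Cre. Recombination is permanent, so the colour records expression up to the time of the sort. Sox6+ neurons were sorted by GFP and Sox6- neurons by mCherry, with 3 libraries each, numbered 103, 825 and 1211 in both groups. The labels name neither sex nor the number of animals behind a library, so the spread between libraries may be technical.

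GABA-A receptors are pentameric chloride channels that open on binding GABA and carry fast inhibition. Most contain alpha and beta subunits, with GABA bound between them, and a gamma subunit, with benzodiazepines bound between alpha and gamma. The alpha subunit sets much of the pharmacology and location: alpha2 and alpha3 are largely synaptic, alpha4 and alpha5 largely extrasynaptic, and alpha4 receptors lack classical benzodiazepine sensitivity. Dopaminergic neurons of the SNc receive dense GABAergic input from the striatum, the pallidum and the pars reticulata.

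The 6 libraries held from 10397924 to 12952768 reads in genes, so a count of 3 reads equalled a normalized value between 2.77 and 3.42. All 8 dopaminergic neuron markers, among them Th and the dopamine transporter gene Slc6a3, were above 0 in every library. Their summed value ran from 102301.4 to 199075.0 in Sox6+ and from 37578.8 to 128272.6 in Sox6- libraries. Sox6+ library 825 stood apart from the other 5 on the leading principal component (50.8% of variance). It also had the highest summed value of 8 microglia and macrophage markers, 27589.5 against 35.5 or less elsewhere. Of that sum Lyz2 alone gave 26494.1 and Tyrobp 1035.1, while 4 of the 8 markers were at 0. The summed value of 6 oligodendrocyte markers was highest there too, at 2106.6 against 263.9 to 392.3, of which Mbp gave 1943.8. For several results that rest on library 825, values without it are given too.

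The genes lie in clusters that the choice of members did not use. Gabrg1 (chr5:70751047-70842617), Gabra2 (chr5:70957597-71095849), Gabra4 (chr5:71569749-71658308) and Gabrb1 (chr5:71658113-72149037) share a stretch of 1398 kb of chromosome 5 (GRCm38). The first 3 are on the minus strand and Gabrb1 is on the plus strand. The annotated 5′ ends of Gabra4 and Gabrb1 overlap by 196 bases, of which 46 are exonic in both genes (0.76% of Gabra4 exon length and 0.33% of that of Gabrb1). Gabrg3 (chr7:56716465-57387188) and Gabra5 (chr7:57407672-57510059) are neighbours on the minus strand of chromosome 7, 20.5 kb apart, and Gabra3 (chrX:72432681-72656848, minus strand) is on the X chromosome. An antisense gene, Gm9962, overlaps 4.98% of Gabra5 exon length. Libraries came from a stranded kit, but the strand setting of the authors' counting is not given in the sources used here, so reads in these overlaps may be shared.

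The start-site windows of these genes were read from RefSeq (GRCm38.p6), 300 bases each from 250 before to 50 after the start, and all 7 genes matched, with 9 windows. Upstream sequence is shown for Gabra4, the only member with a positive difference between Sox6+ and Sox6- neurons, and for Gabrg3, the member with the smallest p. Capitals mark GC boxes (GGGCGG, which reads on the opposite strand as CCGCCC), which 35.7% of all 32851 windows held. The Gabra4 run is chr5:71658364-71658558, which stops short of a Gabrb1 exon, and the Gabrg3 run is chr7:57387216-57387465, within which an exon of Gm9962 lies. Both are written 5′ to 3′ on the minus strand.
Gabra4: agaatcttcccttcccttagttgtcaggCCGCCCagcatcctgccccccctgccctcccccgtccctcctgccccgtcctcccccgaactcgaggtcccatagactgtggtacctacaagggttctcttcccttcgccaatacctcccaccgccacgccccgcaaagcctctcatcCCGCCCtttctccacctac
Gabrg3: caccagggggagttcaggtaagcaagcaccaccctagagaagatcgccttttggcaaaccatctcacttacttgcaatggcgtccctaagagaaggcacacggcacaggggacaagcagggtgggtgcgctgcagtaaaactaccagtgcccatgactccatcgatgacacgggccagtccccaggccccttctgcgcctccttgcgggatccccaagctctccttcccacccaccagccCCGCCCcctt

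Sox6 belongs to the SOX family, whose HMG domain recognises a short core, AACAAT, which reads on the opposite strand as ATTGTT. This core was present in 10.7% of all windows and in 4 of the 9 windows of the subunit genes, 1 each for Gabra3, Gabra4, Gabrb1 and Gabrg1. The windows differ in base composition: GC content was 38.3% for Gabrg1, 43.0% for the Gabra3 window with the core, 50.3% for that of Gabrb1 and 58.7% for Gabra4, against a median of 52.7% over all windows. The 4 matches are shown because these genes differ in the direction of their values below: capitals mark the core, and a match is not evidence of binding. They lie at chrX:72657140-72657169 (minus strand), chr5:71658291-71658320 (minus), chr5:71699859-71699888 (plus) and chr5:70842787-70842816 (minus). The Gabrb1 match belongs to the window of its start at 71699932, and the other Gabrb1 window held none.
Gabra3: acccagggcAACAATcattttcagaggcat
Gabra4: gaaaggctcttcATTGTTtccagccaaacc
Gabrb1: tccactaggaatATTGTTtgcaaggcacaa
Gabrg1: tcaaaattaagtAACAATaattaattataa

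Of the 7 subunit genes, 0 passed at an adjusted p of 0.05 in limma (2-sided, Benjamini-Hochberg over all 13175 tested genes), where 0.304% of tested genes passed. At an unadjusted p under 0.05 there were 4 (Gabrg3, Gabra4, Gabrb1 and Gabra2), where 11.4% of tested genes were. With edgeR (quasi-likelihood test), run on reads recovered from the normalized values, the count was also 0, where 0.0455% of genes were called. DESeq2 on the same reads called Gabra4 higher and Gabrg3 lower, where 2.94% of genes were called. In the authors' deposited table the same 2 genes had adjusted p-values of 0.0276 and 0.00855, where 2.83% of genes were called. The log2 difference of Sox6+ minus Sox6- was negative for 6 of the 7 (51.9% of tested genes) and positive for Gabra4, and the median was -1.03 against -0.02 over all tested genes. The 3 Sox6+ values lay wholly on 1 side of the 3 Sox6- values for Gabrb1 and Gabrg3, where 17.0% of tested genes did so. In these sorted pools, fewer cells of a type and less RNA per cell cannot be told apart.

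**Figure D1:**
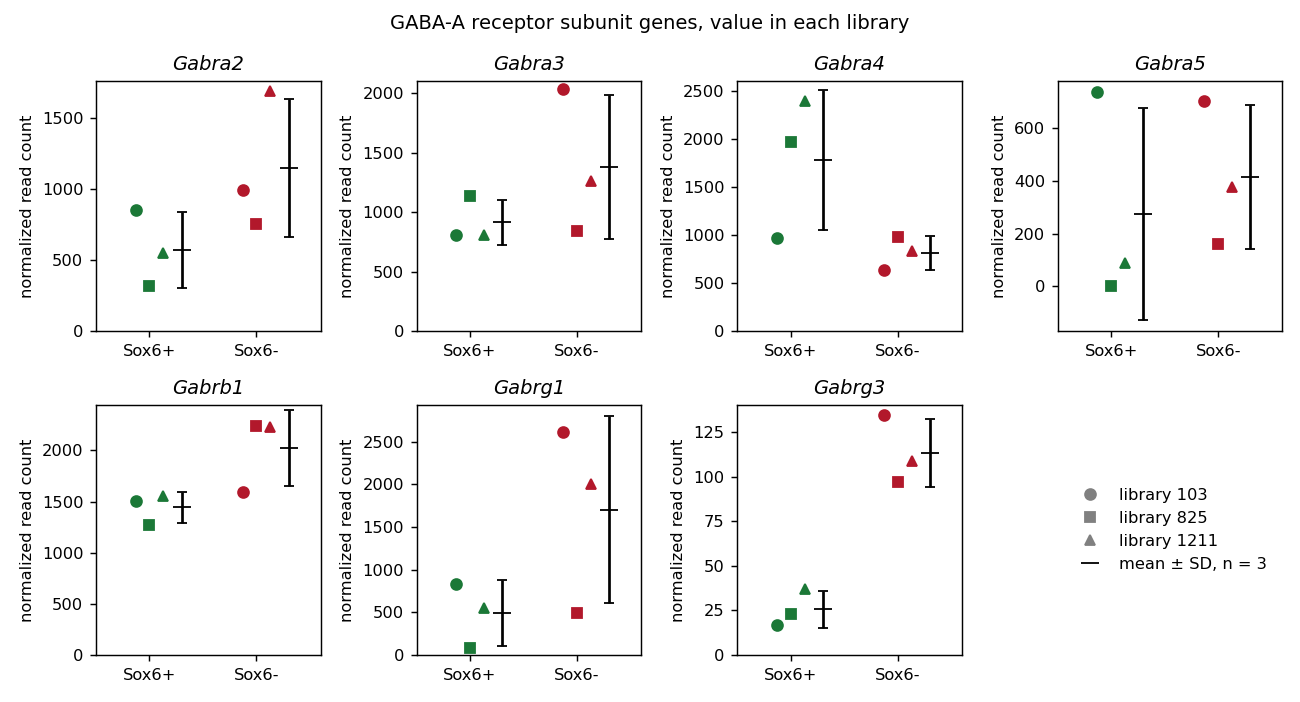
Normalized read count (vertical axis) of each subunit gene in the 3 Sox6+ and 3 Sox6- libraries, with symbols for the library number and bars for the mean ± SD (n = 3). The groups are apart for Gabrg3 and Gabrb1, and Gabra5 and Gabrg1 are lowest in Sox6+ library 825.

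Gabra4 encodes the alpha4 subunit, typical of extrasynaptic receptors with high GABA affinity. Its normalized read count was 974.7, 1972.2 and 2399.9 in Sox6+ libraries 103, 825 and 1211 and 633.2, 985.9 and 837.5 in the Sox6- libraries. Sox6+ libraries 825 and 1211 were above all Sox6- libraries, while Sox6+ library 103 lay just under Sox6- library 825, so the groups overlapped. The means were 1782.3 ± 731.4 and 818.9 ± 177.1 (SD, n = 3 each), and the log2 difference was 1.05 with a 95% interval of 0.30 to 1.79 and an adjusted p of 0.278 (limma). The call depended on the method and on 1 library: with all 6 libraries the DESeq2 adjusted p was 0.0276. Without Sox6+ library 103 the log2 difference was 1.43 and the adjusted p 0.019 (limma, 1.23% of genes called). Without Sox6+ library 825 the log2 difference was 0.92 and the adjusted p 0.494 (limma).

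The summed value of the dopaminergic markers followed Gabra4 only in part. In Sox6+ libraries 103, 825 and 1211 the sum was 102301.4, 199075.0 and 172673.4. Library 103 was the lowest for both, while the sum was highest in 825 and Gabra4 in 1211. In the Sox6- libraries, in the same order, the sum was 42108.7, 128272.6 and 37578.8. Library 825 was the highest for both, while the sum was lowest in 1211 and Gabra4 in 103. Of the 8 markers, Th, Slc6a3, Slc18a2, Ddc, Pitx3 and En1 were lowest in library 103 of the Sox6+ group, as Gabra4 was. The transcription factor genes Nr4a2 (2479.1, 2316.1 and 2179.0) and Foxa2 (124.3, 288.1 and 45.3) were not. All 8 markers had a positive log2 difference, with a median of 1.25, where 51.9% of tested genes had a negative one. In limma, 5 of the 8 had an unadjusted p under 0.05 (11.4% of tested genes), and 0 passed at an adjusted p of 0.05. The part of these markers in the Gabra4 difference was not tested.

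Gabra3 encodes the alpha3 subunit, a form common in monoaminergic neurons. It had values of 809.9, 1135.3 and 804.9 in Sox6+ and of 2037.7, 840.9 and 1259.5 in Sox6- libraries, again in the order 103, 825 and 1211. The groups overlapped, and Sox6- library 103 was the highest of the 6. The log2 difference was -0.51 with a 95% interval of -1.21 to 0.18 and an adjusted p of 0.555 (limma), and it was -0.19 without Sox6- library 103 and -0.82 without Sox6- library 825.

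Gabra2 encodes the alpha2 subunit of synaptic receptors. Its values were 849.4, 317.7 and 548.0 in Sox6+ and 993.9, 757.3 and 1690.7 in Sox6- libraries. Only Sox6+ library 103 reached into the Sox6- range, above Sox6- library 825. The log2 difference was -1.03 with a 95% interval of -1.95 to -0.12 and an adjusted p of 0.391 (limma). It was -0.67 without Sox6+ library 825.

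Gabra5 encodes the alpha5 subunit, known for tonic inhibition in the hippocampus. Its values were 735.0, 0 and 87.8 in Sox6+ and 703.2, 161.1 and 374.7 in Sox6- libraries. The value of 0 in Sox6+ library 825 allows up to 3.42, for counting error only, and library 103 was the highest in both groups. The log2 difference of -3.12 had a 95% interval of -9.71 to 3.48 and an adjusted p of 0.695 (limma), with estimates on recovered reads of -0.60 (edgeR) and -0.59 (DESeq2). It was -0.45 without Sox6+ library 825 and -5.22 without Sox6+ library 103. The means, 274.2 ± 401.4 and 413.0 ± 273.1 (SD, n = 3 each), differed by less than either SD.

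Gabrg1 encodes the gamma1 subunit, a gamma form of restricted distribution in neurons that some glia also make. It had values of 836.6, 75.2 and 553.5 in Sox6+ and of 2615.2, 491.4 and 2000.5 in Sox6- libraries. Library 825 was the lowest in both groups, and Sox6- library 825 lay within the Sox6+ range. The log2 difference was -2.06 with a 95% interval of -4.97 to 0.85 and an adjusted p of 0.559 (limma). Without Sox6+ library 825 it was -1.01.

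The values of Gabra5 and Gabrg1 were set beside the GABAergic neuron markers Gad1, Gad2, Slc32a1, Pvalb and Npy. The summed value of the markers was 7068.4, 5.69 and 2340.8 in the Sox6+ libraries and 11603.3, 1296.1 and 6594.1 in the Sox6- libraries, in the order 103, 825 and 1211. Of the 5 markers, 4 were at 0 in Sox6+ library 825, 1 in each other Sox6+ library and 0 in the Sox6- libraries. Within each group, 103 was the highest and 825 the lowest for the sum, for Gabra5 and for Gabrg1. Gad1, an enzyme that makes GABA, was at 4797.5, 0 and 1244.8 in Sox6+ and at 7647.0, 508.6 and 2636.7 in Sox6- libraries. Gad2 and Slc32a1 had the same order in both groups, while Pvalb and Npy did not. Pvalb was at 400.5, 0 and 868.7 in Sox6+ and at 60.4, 66.5 and 128.0 in Sox6- libraries, and Npy was at 0 in all Sox6+ libraries and at 10.6, 48.3 and 166.0 in Sox6- libraries. Of the 6 astrocyte markers, from 2 to 5 were at 0 in each library: the defining Gja1 was at 0 in every library and Aqp4 at 0 in 5, with 4.62 in Sox6+ library 1211. Slc1a3, a glutamate transporter gene of astrocytes, was at 0 in all Sox6+ libraries. It was at 75.8, 0 and 24.1 in the Sox6- libraries, where Gabrg1 had the same order. Other astrocyte markers did not have it: Gfap was at 0, 9.06 and 21.3 in the Sox6- libraries and Aldh1l1 at 0, 3.02 and 5.56. With Aldoc, at 3858.5, 4315.3 and 7044.8, they were lowest in Sox6- library 103, where Gabrg1 was highest. Aldoc, which made up most of the astrocyte sum of 2727.2 to 3077.3 in Sox6+ and 3934.3 to 7095.8 in Sox6- libraries, is not confined to astrocytes. The part of GABAergic and astrocyte markers in the Gabra5 and Gabrg1 values was not tested.

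**Figure D2:**
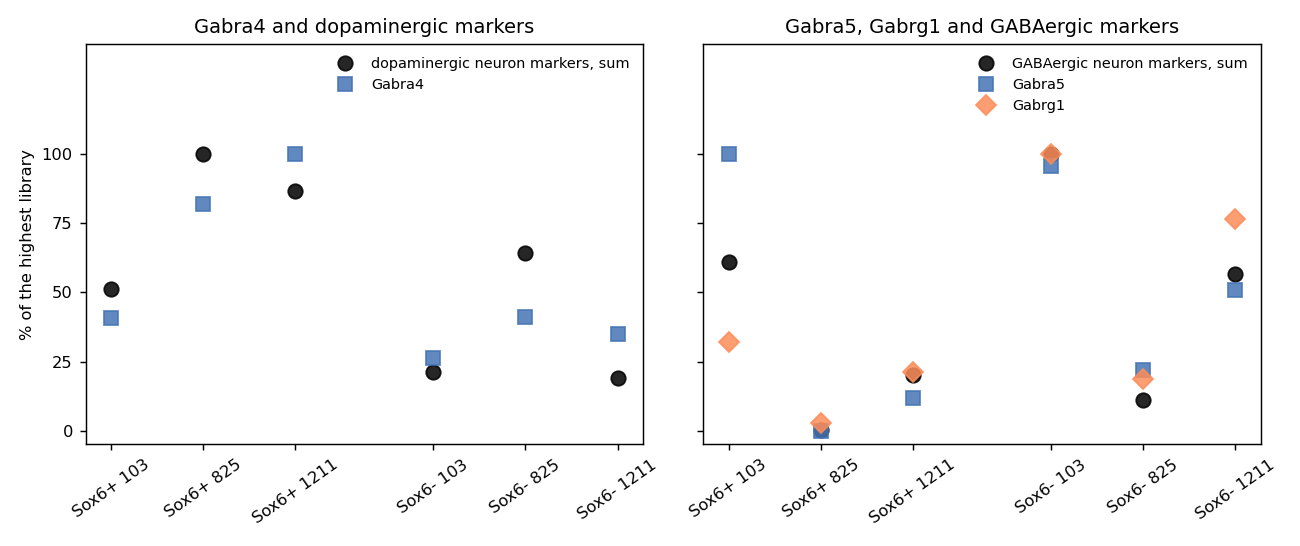
Summed dopaminergic markers with Gabra4 (left) and summed GABAergic markers with Gabra5 and Gabrg1 (right) in each library, as a percent of the library where each was highest (vertical axis). Gabra4 was at 26.4% in Sox6- library 103, and Gabra5 and Gabrg1 were at 0% and 2.87% in Sox6+ library 825.

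Gabrb1 encodes the beta1 subunit, which forms the GABA site together with alpha. Its values were 1503.5, 1274.2 and 1556.2 in Sox6+ and 1590.6, 2234.7 and 2234.2 in Sox6- libraries. The groups did not overlap, but Sox6- library 103 lay close to the Sox6+ libraries. The log2 difference was small, -0.47, with a 95% interval of -0.87 to -0.07 and an adjusted p of 0.377 (limma), and it was -0.30 without both libraries numbered 825.

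Gabrg3 encodes the gamma3 subunit, a minor gamma form in most of the brain. Its values were 16.8, 22.8 and 37.0 in Sox6+ and 134.3, 96.7 and 108.5 in Sox6- libraries, resting on 77 and 353 reads. Every Sox6- library was above every Sox6+ library, with means of 113.2 ± 19.2 against 25.5 ± 10.4 (SD, n = 3 each). The log2 difference was -2.17 with a 95% interval of -3.28 to -1.05, or 4.49-fold lower in Sox6+ neurons on the log2(value + 1) scale, and the adjusted p was 0.131 (limma). It ranged from -2.46 to -1.91 when each library was left out in turn, so no single library carried the difference.

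**Figure D3:**
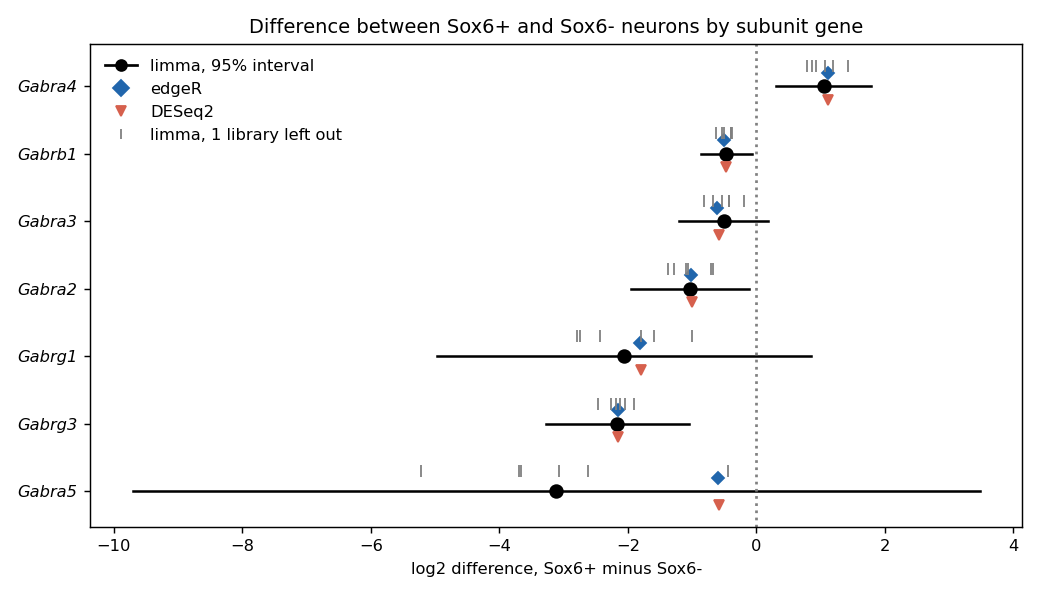
Log2 difference of Sox6+ minus Sox6- neurons (horizontal axis) for each subunit gene, with the limma estimate and its 95% interval, the edgeR and DESeq2 estimates on recovered reads, and the limma estimates with 1 library left out. The Gabrg3 estimates stay between -2.46 and -1.91, while those of Gabra5 spread from -5.22 to -0.45.

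Gabra4 and Gabrb1, whose 5′ ends overlap, had differences of opposite sign. The ratio of Gabra4 to Gabrb1 was 0.648, 1.55 and 1.54 in Sox6+ libraries 103, 825 and 1211 and 0.398, 0.441 and 0.375 in the Sox6- libraries. The 2 groups of ratios did not overlap. The pair was chosen after its values were seen, so no test is given, and the share of such pairs over all genes was not computed. For other pairs in the cluster, the ratios of Gabra4 to Gabra2, Gabra2 to Gabrg1 and Gabra4 to Gabrg1, the groups overlapped. Within the chromosome 5 cluster, Gabra2 and Gabrg1 shared the negative sign of Gabrb1. On chromosome 7 the neighbours Gabra5 and Gabrg3 both had negative differences, but Gabra5 was highest in library 103 of the Sox6+ group, where Gabrg3 was lowest.

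Levels of different genes were compared as normalized reads per kilobase of merged exon. In Sox6+ neurons Gabra4 was the highest at 293 ± 120, before Gabra3 at 234 ± 48.2 (SD, n = 3 each), and these 2 did not differ beyond their spread. Gabrb1 (104 ± 10.8), Gabra5 (92.2 ± 135), Gabra2 (74.8 ± 34.9) and Gabrg1 (62.1 ± 48.9) followed within their SDs, and Gabrg3 was the lowest at 2.14 ± 0.869. In Sox6- neurons Gabra3 led at 352 ± 155, followed by Gabrg1 at 216 ± 139, with overlapping spreads. Gabra2 (150 ± 63.5), Gabrb1 (146 ± 26.9), Gabra5 (139 ± 91.8) and Gabra4 (135 ± 29.1) could not be ordered by their spread, and Gabrg3 was again the lowest at 9.48 ± 1.61. Per kilobase of the longest transcript Gabra4 ranked 3 and Gabrb1 6 in Sox6- neurons, and Gabra3 and Gabra4 kept the first place in their groups.

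The mix of the 4 alpha genes was compared as each gene's percent of their sum per kilobase, which does not depend on library scaling. Gabra4 made up 22.1%, 49.5% and 56.3% in the Sox6+ libraries and 10.5%, 30.6% and 17.1% in the Sox6- libraries. Its mean share was 42.6% ± 18.1 against 19.4% ± 10.2 (SD, n = 3 each), a difference of 23.2 percentage points, and Sox6+ library 103 lay within the Sox6- range (exact two-sided permutation p = 0.2, where 3 against 3 cannot go below 0.1). The Gabra4 difference was 19.8 percentage points without Sox6+ library 825 and 33.5 without Sox6+ library 103. Gabra2 held 10.6% ± 4.51 against 19.8% ± 7.22 (exact permutation p = 0.2), and its difference of -9.13 percentage points was -5.29 without Sox6- library 1211. Gabra3 held 34.0% ± 8.84 against 44.2% ± 7.12 (exact permutation p = 0.3), and its difference of -10.3 percentage points was -6.17 without Sox6- library 103 and -15.4 without Sox6+ library 825. Gabra5 ranged from 0% to 34.1% in Sox6+ libraries and from 10.2% to 23.9% in Sox6- libraries (exact permutation p = 0.7), and its difference of -3.82 percentage points was 2.57 without Sox6+ library 825. With all alpha subunit genes in the sum, the Gabra4 share was 31.3% ± 13.5 against 9.01% ± 4.08 and the exact permutation p was 0.1, the smallest possible. Under that sum the Gabra2 difference was -1.49 percentage points, and those of Gabra3 and Gabra5 turned, to 3.35 and 0.605.

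**Figure D4:**
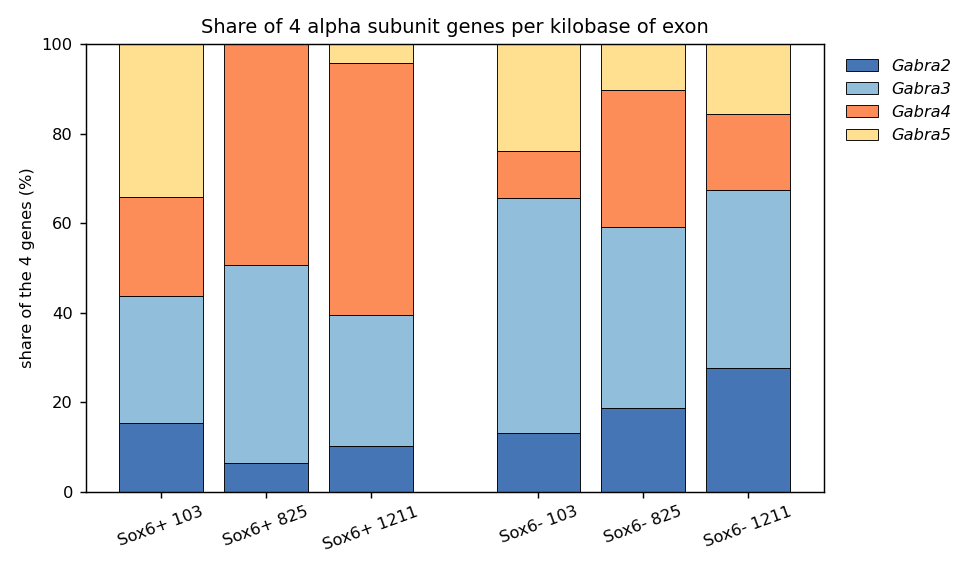
Share of Gabra2, Gabra3, Gabra4 and Gabra5 in their sum per kilobase of exon (vertical axis, percent) in each library. Gabra4 takes 49.5% and 56.3% in Sox6+ libraries 825 and 1211 and at most 30.6% in a Sox6- library.

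Other genes of GABA signalling were taken from lists chosen by function. Of 5 other GABA-A subunit genes tested, among 12 listed, 0 passed in limma or edgeR and DESeq2 called 1 lower (2.94% of tested genes in either direction). All 5 had a negative difference (51.9% of tested genes), with a median of -1.07, and 4 had an unadjusted p under 0.05 in limma (11.4% of tested genes). Gabrq, the theta subunit found with alpha3 in monoaminergic neurons, was at 33.5, 47.8 and 59.1 in Sox6+ and at 69.1, 156.1 and 242.1 in Sox6- libraries (log2 difference -1.57, adjusted p = 0.296, limma). Its groups did not overlap, as for 17.0% of tested genes. Gabra6, Gabrp and Gabrr3 were at 0 in all 6 libraries, and Gabre, Gabrr1 and Gabrr2 had at most 28.8 in any library.

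Among 23 genes of receptor anchoring and trafficking, 0 passed in limma or edgeR and DESeq2 called 1 lower (2.94% of tested genes in either direction). The median was -0.16, and 3 of the 23 had an unadjusted p under 0.05 in limma, where 11.4% of tested genes did. Hap1, the huntingtin-associated protein that aids recycling of GABA-A receptors to the surface, was at 625.5, 341.6 and 542.5 in Sox6+ and at 1126.3, 1079.6 and 1960.6 in Sox6- libraries. Its groups did not overlap, as for 17.0% of tested genes, and the log2 difference was -1.45 with an adjusted p of 0.093 (limma). Plcl1, a binding partner of receptor subunits, was at 152.7 ± 29.8 in Sox6+ neurons against a mean of 282.8 (log2 difference -0.90, adjusted p = 0.247, limma). Of 6 GABA-B receptor genes, 7 of GABA synthesis, transport and breakdown, 7 of chloride balance and 3 of neurosteroid synthesis, 0 passed with limma, edgeR or DESeq2. Unadjusted limma p-values under 0.05 numbered 1, 0, 1 and 0 in these lists, where 11.4% of tested genes had one. The 1 gene among the GABA-B receptor genes was the auxiliary subunit gene Kctd16, at 19.7 in Sox6+ library 103, 0 in 825 and 1211, and 80.6, 19.1 and 49.2 in the Sox6- libraries. That of the chloride list was the chloride channel gene Clcn2, at 60.2, 19.4 and 22.2 against 70.0, 91.6 and 85.3.

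The genes whose pattern was most like that of Gabrg3 and Gabra4, the 2 members of smallest p, were sought among 9734 genes by Pearson correlation of log2 values over the 6 libraries. For Gabrg3 they were Zik1 (0.992), Avpr1a (0.991), the vasopressin V1a receptor, and Zfp828 (0.989). For Gabra4 they were Map1lc3a (0.989), an autophagy protein, E2f3 (0.986), a cell cycle transcription factor, and Gbf1 (0.986). With 6 libraries, 34 and 48 genes reached a correlation of 0.95 with Gabrg3 and Gabra4, so these names describe likeness only.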

How the data were processed

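Neurons were sorted after papain dissociation, and their RNA went into stranded TruSeq mRNA libraries, per the labels' protocols. Tools named in the submitters' processing notes are STAR, HTSeq, FastQC, cutadapt and DESeq2, with GRCm38 (mm10); their versions and settings are not given. The authors deposited 1 table. It holds a normalized signal for each library, that is, reads over a size factor. It also holds the authors' DESeq2 output: log2 fold changes (Sox6- relative to Sox6+) and standard errors, a test score, and raw and adjusted p-values. Of the deposited signal values above 0, 100.0% lay within 0.01 of a whole multiple of 1 step per library (0.9241 to 1.1387), and dividing by the step gave the reads.

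Genes with a mean of at least 10 were tested on log2(value + 1) by limma, its moderation set to trend and robust, with no block. Groups came from the sample titles. Alternatives were other pseudocounts, filters, normalizations and weights, a block for the library number, edgeR and DESeq2 on recovered reads (6 and 387 genes called), and leaving out libraries. Members and lists were chosen with earlier results of these data known, and motifs after the values. The rule for named genes took all members and, per list, at most 4 genes of smallest p; some genes that it names are not reported here. The limma and edgeR fits were also run on simulated reads in which no library was made to stand apart, and the outcome is not reported here. Gene positions and lengths come from GENCODE M21 on GRCm38. Work was done in Python 3.11.15 (pandas 2.3.3, numpy 2.4.6, matplotlib 3.10.9) and R 4.3.3 (DESeq2 1.42.0, edgeR 4.0.16, limma 3.58.1).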

Additional observations from a re-analysis of the deposited data

How the results depend on the processing

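The sign of the log2 difference of each of the 7 subunit genes held under all 21 alternatives. The number of subunit genes called, 0 in limma, was 2 with DESeq2 (Gabra4 and Gabrg3), 0 to 1 when single libraries were left out (Gabra4, without Sox6+ library 103) and 1 without both libraries numbered 103 (Gabra4), an alternative chosen after seeing the data. The genes called higher and lower in Sox6+ neurons, 17 and 23 in limma, were 34 and 35 with a pseudocount of 8, 7 and 14 with no filter, 30 and 39 with quantile normalization, 95 and 111 with library weights, 1 and 5 with edgeR and 171 and 216 with DESeq2. Limma without trend or robust moderation called 4 higher. Leaving out each library gave 0 to 60 higher and 1 to 102 lower: 60 and 102 without Sox6+ library 103, 7 and 19 without Sox6+ 825, 1 and 11 without Sox6+ 1211, 17 and 5 without Sox6- 825, and 0 and 1 without Sox6- 1211. Without both libraries of a number the counts were 39 and 43 (103), 6 and 6 (825) and 0 and 1 (1211). With all alpha subunit genes in the sum, the share difference was 3.35 percentage points for Gabra3 and 0.605 for Gabra5, against -10.3 and -3.82, and without single libraries that of Gabra5 ran from -14.5 to 2.57 (2.57 without Sox6+ 825 and 0.462 without Sox6+ 1211). The causes were not tested.

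Deviations from the group means correlated at 0.268, 0.172 and 0.079 between libraries numbered 103, 825 and 1211, and every library correlated best with its own number, a hint from the data and not from the design. Under a replicate block on that number, 134 genes were called higher and 133 lower by limma, among them 2 subunit genes, Gabra4 and Gabrg1 (adjusted p = 0.0246 and 0.00325, where 2.03% of genes were called), and edgeR with the block called 63 and 57, with 1 subunit gene, Gabrg1 (adjusted p = 0.0193). For the alpha shares, whose mean differences a block cannot alter here, the exact permutation p under the replicate block was 0.25 for Gabra4, the smallest possible with 3 pairs, and 0.5 for Gabra2, Gabra3 and Gabra5. Depth limits Gabrg3 most, with 77 reads in the Sox6+ libraries.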
